A study of Mus musculus with 12 samples.

Results

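The genes described here are 10 effectors and targets of canonical Wnt signalling in mouse embryonic stem cells (ESCs): *Ctnnb1*, the TCF/LEF genes *Tcf7*, *Lef1*, *Tcf7l1* and *Tcf7l2*, and *Axin2*, *Sp5*, *Cdx1*, *Nkd1* and *Dkk1*. They were chosen by symbol, as textbook components and targets of the pathway, from a table of 24881 gene symbols, and all 10 were found in it. RNA was sequenced from R1 ESCs sorted in G1 phase, which carry the FUCCI reporters, fluorescent proteins that mark the phase of the cell cycle. The 4 groups of 2 libraries were WT serum, WT 2i, P53-/- serum and P53-/- 2i. Serum medium held fetal serum and the cytokine LIF, and 2i medium was serum-free and held LIF, the MEK inhibitor PD0325901 and the GSK3 inhibitor CHIR99021. P53-/- ESCs came from CRISPR/Cas9 clones of the same line cut in an exon common to the *Trp53* isoforms. Clones 1 and 2 were used for RNA-seq, and which clone gave which library was not given, so that replicate numbers here follow the order of the columns only. Whether the WT libraries of a group came from separate cultures is not stated in the sources used here, so that p-values measure the spread between these libraries, which may be technical in part. The study asked what P53 does in either culture, and here the same libraries were read for the Wnt pathway, whose inhibitory kinase is blocked in 2i.

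In the absence of a Wnt ligand, a destruction complex built on AXIN and APC lets GSK3 phosphorylate beta-catenin, the product of *Ctnnb1*, which is then degraded. When GSK3 is inhibited, beta-catenin protein accumulates, enters the nucleus and binds TCF/LEF factors on target genes, several of which encode feedback inhibitors of the pathway. In mouse ESCs the TCF7L1 protein is known as a repressor of pluripotency genes, and its relief by beta-catenin is regarded as a main route by which GSK3 inhibition favours self-renewal.

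TCF/LEF proteins bind sequences around CTTTG, and the 250 bases before the start site are shown for 3 targets that differ in such letters and in their values below: *Sp5*, *Dkk1* and *Axin2*. Sequences are from RefSeq (GRCm38.p6), on the strand of the gene and ending at the base before the start site. The windows are chr2:70474673-70474922 on the plus strand for *Sp5*, chr19:30549497-30549746 on the minus strand for *Dkk1* and chr11:108920099-108920348 on the plus strand for *Axin2*. Capitals mark each CTTTG followed by 2 letters that are each A or T, searched on both strands, so that a run ending in AAAG is such a string read on the other strand.
Sp5: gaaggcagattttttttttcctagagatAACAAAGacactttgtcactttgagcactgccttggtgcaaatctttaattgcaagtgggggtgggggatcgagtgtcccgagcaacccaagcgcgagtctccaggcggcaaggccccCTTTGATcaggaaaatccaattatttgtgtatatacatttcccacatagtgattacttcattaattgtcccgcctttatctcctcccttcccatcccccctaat
Dkk1: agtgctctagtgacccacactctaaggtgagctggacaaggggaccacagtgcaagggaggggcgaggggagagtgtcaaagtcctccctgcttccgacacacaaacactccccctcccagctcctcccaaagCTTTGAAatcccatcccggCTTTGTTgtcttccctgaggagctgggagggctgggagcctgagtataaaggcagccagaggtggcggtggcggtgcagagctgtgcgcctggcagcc
Axin2: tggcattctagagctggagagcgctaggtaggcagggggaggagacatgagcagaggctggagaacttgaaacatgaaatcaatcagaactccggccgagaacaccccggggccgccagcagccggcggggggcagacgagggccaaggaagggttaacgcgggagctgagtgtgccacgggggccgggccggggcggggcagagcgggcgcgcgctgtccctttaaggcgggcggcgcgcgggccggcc
In *Sp5* a string on the strand of the gene ended 98 bases before the start site and another on the opposite strand lay 216 bases before it. In *Dkk1* both strings were on the strand of the gene and ended 111 and 92 bases before the start site. The *Axin2* window held none of the 4 strings. The 4 possible strings share their first letters and cannot overlap on a strand. Of the 10 genes, 9 had a window in the table of promoters, and 4 of these held at least 1 string (*Sp5*, *Dkk1*, *Lef1* and *Tcf7l2*), against 16.8% of all 27025 genes with a window. Some genes have several windows, and counted by window 4 of the 15 windows of these genes (26.7%) and 14.8% of all 32851 windows held a string. *Sp5* and *Dkk1* held 2 strings, and 1.69% of all genes held 2 or more. These are matches of letters and do not show binding.

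Expression was given by the authors as FPKM, fragments per kilobase of transcript scaled to the mapped fragments of the library, which corrects for gene length. Fold changes below are differences of log2(FPKM + 0.1) between group means with the standard error (SE) of a limma fit over the 12572 genes whose FPKM averaged 0.5 or more, as 8 of the 10 genes did. A gene was called changed where the adjusted p was under 0.1 and the change exceeded 1.5-fold. The depth, estimated from the steps between low values, was 5190000 to 13030000 fragments per library, up to a common factor. *Trp53* itself was listed at 77.6 and 75.1 FPKM in WT serum, against 16.8 and 3.68 with P53-/-. In 2i it was listed at 26.8 and 33.7 in WT ESCs, against 7.25 and 1.88 with P53-/-, so that each P53-/- library lay below WT of its culture. All 7 ESC markers lay above 1 FPKM in every library, although 1 was called higher and 2 lower in WT 2i than in serum, and 1 higher and 4 lower in P53-/- 2i. Of these *Utf1* was listed at 46.3 to 55.6 FPKM in serum and 4.81 to 7.30 in 2i. Of 8 fibroblast markers only *Thy1* reached 1 FPKM in any library, at 7.55 to 10.5 FPKM in serum and 0.343 to 0.972 in 2i, and *Col3a1*, *Postn* and *Fap* were listed at 0 in all 8 libraries.

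On the FPKM scale *Ctnnb1* was by far the most abundant of the 10 genes, with a mean of 246 over the 8 libraries. *Cdx1* (7.72), *Tcf7* (6.00), *Sp5* (5.72) and *Axin2* (4.61) followed. *Tcf7l1* (0.846), *Lef1* (0.593) and *Tcf7l2* (0.568) lay under 1 FPKM, and *Nkd1* (0.243) and *Dkk1* (0.210) lay under the minimum for testing. The main difference among the 8 libraries was by culture, as the plot of every library shows. *Sp5* and *Cdx1* were higher in every 2i library than in any serum library, *Tcf7* and *Tcf7l2* were lower in every one, and the other 6 genes overlapped between the cultures. Complete separation of the 4 libraries of each culture was seen for 4 of the 8 genes tested, and for 60.8% of all genes tested, so that it was common throughout the transcriptome.

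**Figure D1:**
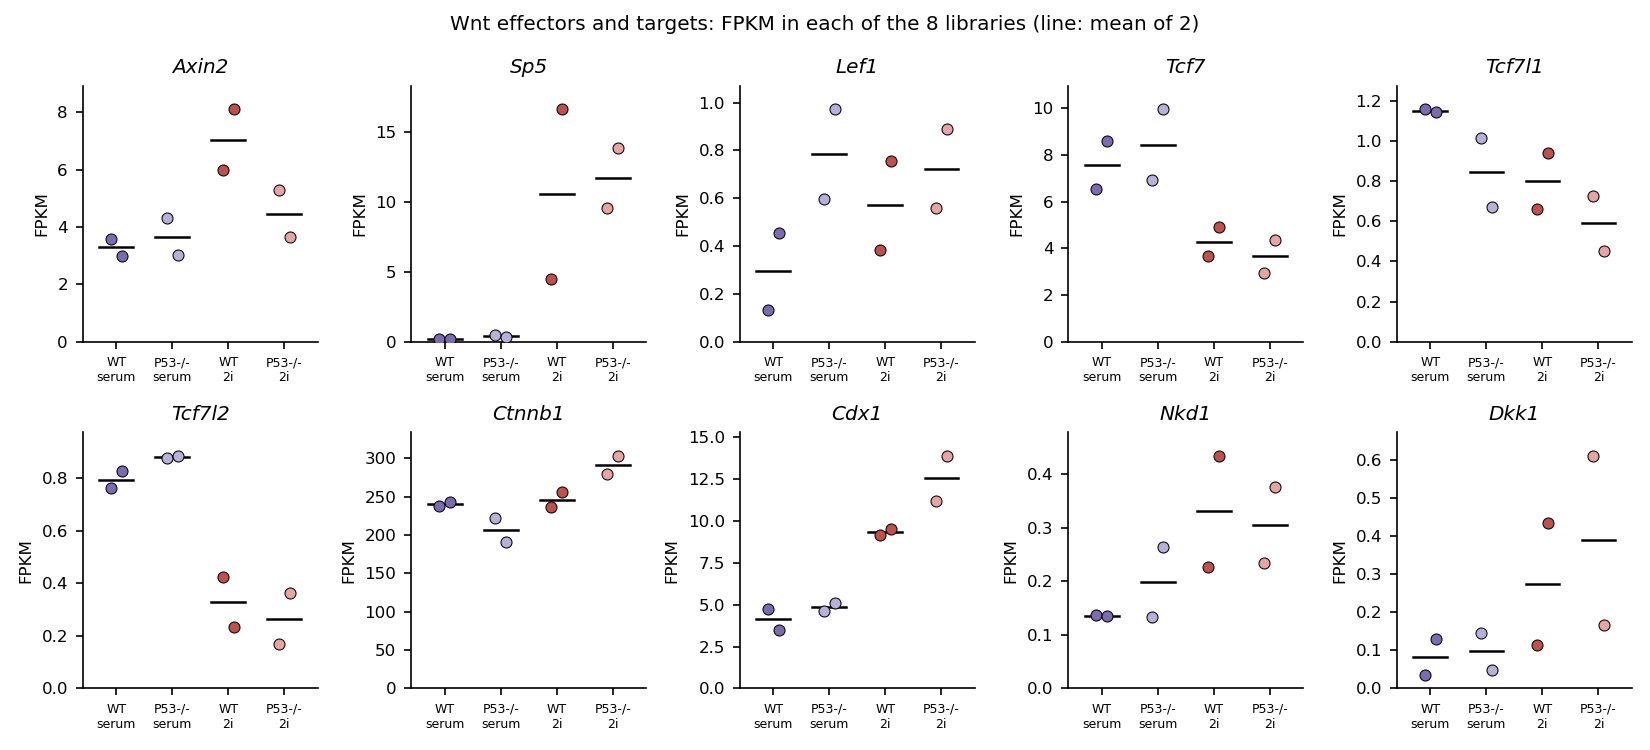
FPKM (linear axes from 0, a scale of its own for each gene) of the 10 Wnt genes in WT and P53-/- ESCs in serum and 2i; points are libraries, lines are means of 2. *Sp5* lies at 0.208 to 0.471 in serum and 4.50 to 16.6 in 2i, *Tcf7l2* at 0.762 to 0.886 in serum and 0.169 to 0.425 in 2i, and the libraries of *Lef1* overlap.

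*Ctnnb1* (chr9:120929216-120960507, GRCm38), which encodes beta-catenin, was listed at 238 and 243 FPKM in WT serum and at 237 and 256 in WT 2i. In P53-/- ESCs it was listed at 222 and 191 in serum and at 280 and 303 in 2i. The cultures overlapped in WT, whereas both P53-/- 2i libraries lay above both P53-/- serum libraries. In WT the fold change of 2i against serum was 0.04 on the log2 scale (SE 0.13, limma adjusted p = 0.832, 95% interval -0.27 to 0.34). In P53-/- it was 0.50 (SE 0.13, limma adjusted p = 0.0113), a fold change of 1.41, below the 1.5 needed for a call. Without P53-/- serum replicate 1 it became 0.61 and was called (limma adjusted p = 0.0136). GSK3 acts on beta-catenin protein, which was not measured here.

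Among the TCF/LEF genes, *Tcf7* (chr11:52252371-52283014), whose product TCF1 is generally an activator with beta-catenin, was the most abundant. It was listed at 6.56 and 8.60 FPKM in WT serum and at 3.67 and 4.91 in WT 2i. In P53-/- ESCs the values were 6.93 and 9.96 in serum and 2.96 and 4.38 in 2i. Every 2i library was below every serum library. *Tcf7* fell in 2i against serum, with fold changes of -0.81 in WT (SE 0.28, limma adjusted p = 0.0348) and -1.18 in P53-/- (SE 0.28, limma adjusted p = 0.00661). The call in WT was lost without WT 2i replicate 1 (limma adjusted p = 0.173) or without WT serum replicate 2 (limma adjusted p = 0.219).

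*Tcf7l2* (chr19:55741820-55933654), whose product TCF4 can act as an activator or a repressor, was listed at 0.762 and 0.828 FPKM in WT serum, and at 0.425 and 0.235 in WT 2i. It was listed at 0.876 and 0.886 in P53-/- serum, and at 0.169 and 0.361 in P53-/- 2i. Each 2i library lay below each serum library, at levels that rest on few fragments. The mean of *Tcf7l2* passed the minimum of 0.5 FPKM only through the serum libraries, as every 2i library lay below it. *Tcf7l2* fell in 2i, with fold changes of -1.09 in WT (SE 0.47, limma adjusted p = 0.0794) and -1.48 in P53-/- (SE 0.47, limma adjusted p = 0.0268). The call in WT was lost without WT 2i replicate 2 (limma adjusted p = 0.232), WT serum replicate 1 (limma adjusted p = 0.118) or WT serum replicate 2 (limma adjusted p = 0.141), and that in P53-/- without P53-/- 2i replicate 1 (limma adjusted p = 0.108). With a pseudocount of 1 the fold changes were -0.44 and -0.58, and neither was called.

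*Tcf7l1* (chr6:72626378-72789254), the repressor described above, was listed at 1.16 and 1.14 FPKM in WT serum and at 0.660 and 0.942 in WT 2i. In P53-/- it was listed at 1.01 and 0.673 in serum and at 0.728 and 0.453 in 2i. The WT groups did not overlap and the P53-/- groups did. The fold changes of 2i against serum, -0.49 in WT (SE 0.39, limma adjusted p = 0.302, 95% interval -1.39 to 0.41) and -0.46 in P53-/- (SE 0.39, limma adjusted p = 0.333, 95% interval -1.35 to 0.44), were not called. The symbol *Tcf3*, an older name of *Tcf7l1*, is in this table a separate gene that encodes the E2A protein, and its values were not used for *Tcf7l1*.

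*Lef1* (chr3:131110471-131224356), which is usually an activator and often itself a Wnt target, was listed at 0.133 and 0.455 FPKM in WT serum and at 0.384 and 0.756 in WT 2i. It was listed at 0.595 and 0.972 in P53-/- serum and at 0.559 and 0.888 in P53-/- 2i. The cultures overlapped in both genotypes. Neither the change in WT (0.84, SE 0.58, limma adjusted p = 0.243) nor that in P53-/- (-0.10, SE 0.58, limma adjusted p = 0.897) was called. The WT value moved with each WT library left out: it was 1.47 and called without WT serum replicate 2 (limma adjusted p = 0.073), 0.21 without WT serum replicate 1 (limma adjusted p = 0.773), 1.25 without WT 2i replicate 1 and 0.43 without WT 2i replicate 2. It was 0.28 with quantile normalization and with a pseudocount of 1.

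Summed over the 4 genes, TCF/LEF expression was 4.42 to 6.85 FPKM in 2i and 8.61 to 12.5 FPKM in serum, so that no 2i library reached the lowest serum library. *Tcf7* made up 67.0% to 71.99% of the sum in 2i and 73.6% to 79.7% in serum. *Lef1* made up 7.48% to 14.6% in 2i and 1.54% to 7.78% in serum, and *Tcf7l1* 7.45% to 16.5% and 5.39% to 13.4%. *Tcf7l2* made up 3.43% to 8.27% in 2i and 7.09% to 9.30% in serum. The lower sum in 2i thus went with lower *Tcf7*. The shares of *Lef1*, *Tcf7l1* and *Tcf7l2* overlapped between the cultures over both genotypes. Within each genotype that of *Lef1* was higher in both 2i libraries than in both serum libraries (7.48% and 11.04% against 1.54% and 4.13% in WT, 12.7% and 14.6% against 6.32% and 7.78% in P53-/-). In P53-/- the FPKM of *Lef1* did not rise (fold change -0.10), so that its higher share there went with lower *Tcf7*. The share of *Tcf7l2* was lower in both P53-/- 2i libraries (3.83% and 5.95%) than in both P53-/- serum libraries (9.30% and 7.09%). An estimated 6.32 to 33.6 *Lef1* fragments lay behind each value. Whether fewer cells expressed a gene or each cell held less of its RNA cannot be told apart in bulk samples.

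**Figure D2:**
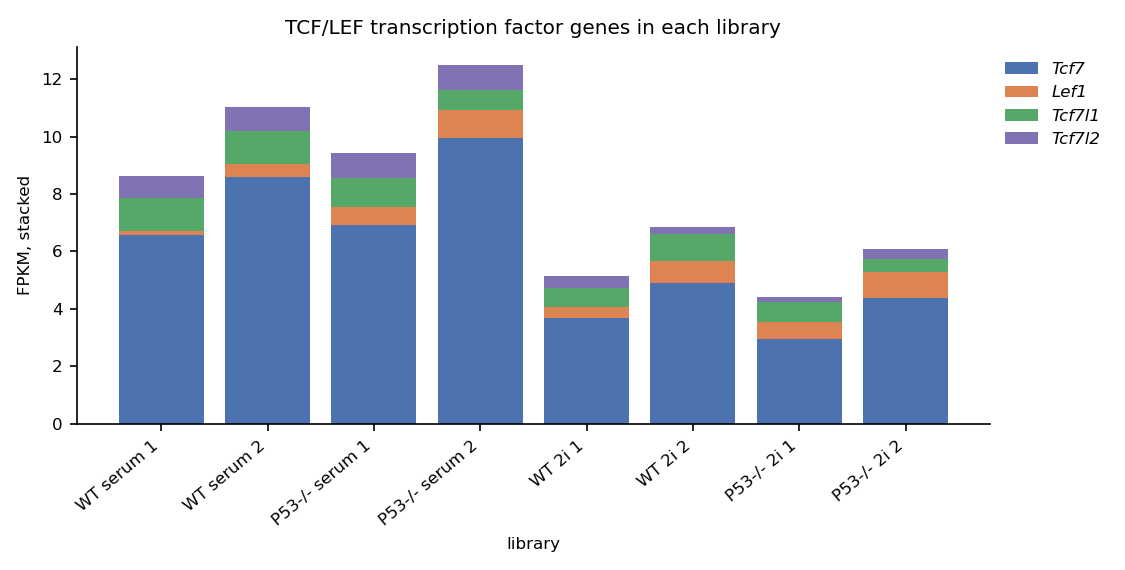
Stacked FPKM of the TCF/LEF genes *Tcf7*, *Lef1*, *Tcf7l1* and *Tcf7l2* in each of the 8 libraries (linear axis from 0). The bars reach 8.61 to 12.5 in serum and 4.42 to 6.85 in 2i, and *Tcf7* is the largest part of each.

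Of the 5 targets and feedback inhibitors among the 10 genes, *Sp5* (chr2:70474923-70477729), a zinc finger repressor that is among the most direct Wnt targets and whose promoter is shown above, differed most between the cultures. It was listed at 0.221 and 0.208 FPKM in WT serum and at 4.50 and 16.6 in WT 2i. In P53-/- ESCs it was listed at 0.471 and 0.313 in serum and at 9.56 and 13.8 in 2i. The lowest 2i library was well above the highest serum library, although the WT 2i libraries were far apart. *Sp5* rose by 4.80 on the log2 scale in WT (SE 0.55, limma adjusted p = 0.000246, 95% interval 3.54 to 6.07), which ranked 75 among the rises of 12572 genes, and by 4.58 in P53-/- (SE 0.55, limma adjusted p = 0.00026, 95% interval 3.31 to 5.84). The WT value was 5.74 without WT 2i replicate 1 and 3.87 without WT 2i replicate 2. The serum libraries held an estimated 3.06 to 12 *Sp5* fragments each and the 2i libraries 74.2 to 194, so that the fold depends on the pseudocount: with a pseudocount of 1 it was 3.02 in WT and 3.17 in P53-/-, and with 0.01 it was 5.27 and 4.87.

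*Cdx1*, a caudal homeobox gene of the posterior body axis and a Wnt target, was listed at 4.76 and 3.48 FPKM in WT serum and at 9.19 and 9.51 in WT 2i. It was listed at 4.62 and 5.11 in P53-/- serum and at 11.2 and 13.9 in P53-/- 2i. All 2i libraries were above all serum libraries. *Cdx1* rose by 1.18 in WT (SE 0.19, limma adjusted p = 0.00132) and by 1.34 in P53-/- (SE 0.19, limma adjusted p = 0.000624), and both calls were kept in every alternative fit that was run.

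*Axin2* (chr11:108920349-108950783), a scaffold of the destruction complex that is induced by Wnt as negative feedback, was listed at 3.57 and 3.01 FPKM in WT serum and at 5.98 and 8.10 in WT 2i. In P53-/- the values were 4.30 and 3.01 in serum and 5.29 and 3.64 in 2i. The WT cultures were clearly apart, whereas those of P53-/- overlapped. *Axin2* rose by 1.06 in WT 2i against serum (SE 0.27, limma adjusted p = 0.01), which held with any library left out. In P53-/- the fold change was 0.28 (SE 0.27, limma adjusted p = 0.39, 95% interval -0.34 to 0.90) and was not called. The difference of these fold changes, P53-/- minus WT, was -0.79 (SE 0.38, limma adjusted p = 0.429, 95% interval -1.66 to 0.09), so that a different response of the genotypes was not shown.

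*Nkd1* (chr8:88521354-88594884) and *Dkk1* (chr19:30545863-30549665) encode feedback inhibitors, an antagonist of Dishevelled inside the cell and a secreted ligand of the LRP5/6 co-receptors. *Nkd1* was listed at 0.136 and 0.134 FPKM in WT serum, 0.227 and 0.435 in WT 2i, 0.133 and 0.263 in P53-/- serum and 0.235 and 0.376 in P53-/- 2i. *Dkk1* was listed at 0.0343 and 0.129 in WT serum, 0.113 and 0.434 in WT 2i, 0.146 and 0.0485 in P53-/- serum and 0.610 and 0.167 in P53-/- 2i. Both genes stayed under 1 FPKM in every library, and the cultures overlapped when both genotypes were counted. Their fold changes of 2i against serum were 0.83 and 0.95 in WT and 0.46 and 1.19 in P53-/-. In a fit with no filter none was called, with limma adjusted p between 0.142 and 0.397. An estimated 1.08 to 14.3 *Dkk1* fragments lay behind each value.

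In WT, 3 of the 8 genes tested were called higher in 2i (*Sp5*, *Cdx1*, *Axin2*) and 2 lower (*Tcf7*, *Tcf7l2*), while 55.7% of all genes tested were called in this comparison. In P53-/-, 2 were called higher (*Sp5*, *Cdx1*) and 2 lower (*Tcf7*, *Tcf7l2*), beside 58.2% of all genes. The share of Wnt genes that changed was thus near that of the transcriptome. These counts include *Tcf7l2*, which passed the minimum of 0.5 FPKM only through serum, and *Sp5*, which passed it only through 2i. Each lay below that minimum in every library of the other culture. The median fold change over the 8 genes was 0.44 in WT and 0.09 in P53-/-, against -0.02 and -0.03 over all genes tested. The cultures differ in serum, in both inhibitors and in the rest of the medium, and these cannot be told apart here. Of 6 genes known to depend on ERK, the kinase below MEK, 4 were called lower in WT 2i and 5 in P53-/- 2i. *Spry4*, an inhibitor of that pathway, changed most of these, from 60.6 to 76.8 FPKM in serum to 0.173 to 0.399 in 2i. *Etv5* was called in neither genotype, at 60.2 to 73.8 FPKM in serum and 63.1 to 73.5 in 2i. *Egr1* had -0.52 in WT, not called, and -3.16 in P53-/-, called lower. The summed FPKM of 7 primitive streak markers was 2.58 to 3.76 in serum and 8.37 to 13.5 in 2i. Of these markers *T* and *Gsc* were called higher in 2i in both genotypes, *Gsc* making up most of the sum at 6.23 to 9.83 FPKM. *Eomes* had fold changes of -0.52 in WT, not called, and -0.77 in P53-/-, called lower (limma adjusted p = 0.0569), and *Mixl1* and *Mesp1* were under 1 FPKM in every library. The sum of 7 primitive endoderm markers was 1.28 to 2.93 FPKM in serum and 1.63 to 4.36 in 2i; *Gata4* alone passed the level for testing and was called higher in 2i (1.19 in WT and 1.81 in P53-/-, limma adjusted p = 0.044 and 0.00748). Of the neural progenitor markers, *Nes* was called lower in WT 2i (-0.74, limma adjusted p = 0.0123) and not in P53-/- (-0.17), *Sox1* was called in neither genotype, and *Pax6* and *Zic1* were below the level for testing, at 0.157 to 0.731 and 0 to 0.396 FPKM. The part of the ERK genes and of these markers in the values above was not tested.

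**Figure D3:**
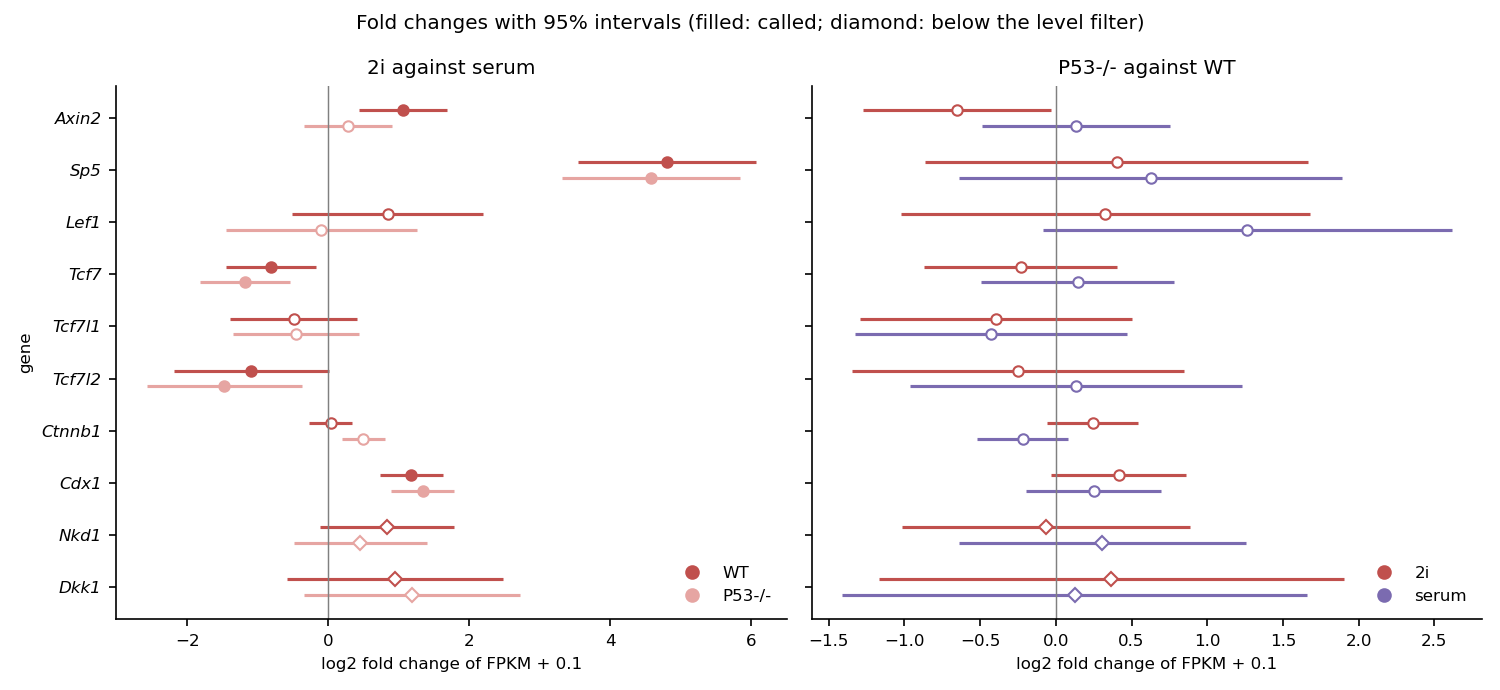
Fold changes on the log2(FPKM + 0.1) scale of the 10 genes, 2i against serum in WT and P53-/- (left) and P53-/- against WT in 2i and serum (right), with 95% intervals from limma. Filled points were called and diamonds were below the minimum level; *Sp5* stands at 4.80 and 4.58 on the left, and no point on the right is filled.

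None of the 8 Wnt genes tested was called on loss of P53 in either culture. In 2i, where 10.3% of all genes were called, 0 of 8 were called by limma and 1 had an unadjusted p under 0.05. That gene was *Axin2*, with 5.29 and 3.64 FPKM in P53-/- against 5.98 and 8.10 in WT, a fold change of -0.65 (SE 0.27, limma adjusted p = 0.178, 95% interval -1.27 to -0.03). The fold changes of *Ctnnb1* (0.24, limma adjusted p = 0.292) and *Cdx1* (0.41, limma adjusted p = 0.229) had intervals of -0.06 to 0.55 and -0.03 to 0.86. In these 3 genes the P53-/- and WT 2i libraries did not overlap, *Axin2* being lower and the others higher in P53-/-, but 53.6% of all genes tested were apart in this way.

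For *Sp5* the fold change of P53-/- against WT in 2i was 0.40 (SE 0.55, limma adjusted p = 0.699), with P53-/- libraries at 9.56 and 13.8 FPKM between the WT libraries at 4.50 and 16.6. Without WT 2i replicate 1 it was -0.53, and without WT 2i replicate 2 it was 1.34 and called (limma adjusted p = 0.0961). The 4 TCF/LEF genes had fold changes from -0.40 (*Tcf7l1*) to 0.33 (*Lef1*), with limma adjusted p from 0.574 to 0.796.

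In serum 1.02% of all genes were called on loss of P53, and 0 of the 8 Wnt genes were called or had an unadjusted p under 0.05 by limma. The fold change farthest from 0 was that of *Lef1*, 1.26 (SE 0.58, limma adjusted p = 0.468, 95% interval -0.09 to 2.61), with 0.595 and 0.972 FPKM in P53-/- against 0.133 and 0.455 in WT. For *Sp5* it was 0.63 (limma adjusted p = 0.71), and for *Tcf7l1* -0.43 (limma adjusted p = 0.718). In 5 of the 8 genes the P53-/- and WT serum libraries did not overlap (*Sp5*, *Lef1* and *Tcf7l2* higher, *Tcf7l1* and *Ctnnb1* lower in P53-/-), beside 47.5% of all genes. The effect of P53 loss differed between 2i and serum for 0.207% of all genes and for 0 of these 8 by limma. *Ctnnb1* alone had an unadjusted p under 0.05 (difference 0.46, SE 0.18, limma adjusted p = 0.348, 95% interval 0.04 to 0.89).

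A list of 104 other genes of the pathway was read in the same fit, of which 66 passed the minimum level. Of the 38 that did not, 36 stayed under 1 FPKM in every library, 2 of these being listed at 0 throughout. In WT, 17 were called higher and 17 lower in 2i (51.5% of those tested, beside the 55.7% of all genes), and in P53-/- 14 higher and 21 lower (53%, beside 58.2%). The median fold change of the list was 0.06 in WT and 0.02 in P53-/-. Of the genes called, 28 of 34 in WT and 28 of 35 in P53-/- were called in both, all in the same direction, 12 higher and 16 lower in 2i. The direction thus differed from gene to gene within most roles, as the plot of the list by role shows. The overlap of calls between the genotypes was not counted over all genes, so that it is not shown to be particular to the list.

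Only 4 of 23 ligand genes reached the level for testing. *Wnt5b*, mainly a ligand of non-canonical Wnt signalling, rose in 2i by 1.89 in WT and 1.76 in P53-/- (limma adjusted p = 0.00171 and 0.00222). *Wnt6*, a canonical ligand, fell in P53-/- 2i against serum (-1.69, limma adjusted p = 0.0012) and had 0.16 in WT, not called (limma adjusted p = 0.644). Of 3 genes for secretion and inactivation, *Wls*, the carrier that brings Wnt proteins to the cell surface, rose by 2.54 and 3.43 (limma adjusted p = 0.00327 and 0.000688). *Porcn*, the acyltransferase that lipidates Wnt proteins before they are secreted, fell (-1.94 and -2.87, limma adjusted p = 0.00272 and 0.000361). These genes for steps of the same export route therefore went opposite ways, *Wls* from 0.130 to 0.363 FPKM in serum to 1.54 to 4.30 in 2i, and *Porcn* from 3.61 to 6.42 down to 0.571 to 1.35. *Notum*, a deacylase that inactivates Wnt and a known feedback target, rose in WT by 0.97 (limma adjusted p = 0.0177), a call lost without WT 2i replicate 2 (0.60, limma adjusted p = 0.103) or WT serum replicate 1 (0.88, limma adjusted p = 0.112). Its value in P53-/- was 0.23 (limma adjusted p = 0.486).

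Of 15 receptor genes tested, 4 were called higher and 7 lower in WT 2i, and 4 higher and 8 lower in P53-/- 2i. The Frizzled genes, which encode the Wnt receptors, split. *Fzd7* fell (-2.46 in WT and -2.18 in P53-/-, limma adjusted p = 0.000128 and 0.000183), from 12.9 to 17.6 FPKM in serum to 2.28 to 3.61 in 2i. *Fzd3* (-1.84 and -1.95) and *Fzd5* (-0.79 and -1.63) also fell. *Fzd8* rose by 2.14 and 1.36, *Fzd2* by 1.59 and 2.20 and *Fzd9* by 1.60 and 1.47. Frizzled genes were thus called in both directions, and the receptor proteins were not measured.

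Of 6 antagonist genes tested, 1 was called higher and 2 lower in each genotype. *Sfrp4*, a secreted Frizzled-related protein that can bind Wnt, fell (-1.51 in WT and -2.33 in P53-/-). *Sfrp2* fell by 1.27 and *Dkk3*, a divergent member of the Dickkopf family, rose by 1.11 in WT, both calls resting on single libraries (limma adjusted p = 0.0312 and 0.0318; without WT 2i replicate 1 or WT serum replicate 1 that of *Sfrp2* was 0.141 or 0.134, and without WT 2i replicate 2 or WT serum replicate 2 that of *Dkk3* was 0.162 or 0.126). In P53-/-, *Sfrp2* had -0.44 and *Dkk3* -0.11, not called, and *Sfrp1* rose by 1.11 (limma adjusted p = 0.000179).

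Among Dishevelled genes and their regulators, *Dact1* and *Dact2*, paralogs that encode Dishevelled-binding proteins, went opposite ways. *Dact2* rose from 2.54 to 4.13 FPKM in serum to 14.8 to 16.9 in 2i, by 1.99 in WT and 2.40 in P53-/- (limma adjusted p = 6.76e-05 and 3.06e-05). *Dact1* fell from 1.93 to 2.88 FPKM in serum to 0.199 to 0.540 in 2i, with fold changes of -2.11 and -2.27 (limma adjusted p = 0.00311 and 0.002). *Dvl1*, 1 of the Dishevelled genes, rose by 0.87 and 0.70. *Dact3* rose by 0.88 in WT (limma adjusted p = 0.0265), a call lost without WT 2i replicate 1 (limma adjusted p = 0.134) or WT serum replicate 2 (limma adjusted p = 0.158).

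Of 10 listed genes of the destruction complex tested, which leave out *Axin2* described above, 2 were called lower in each genotype and none higher. These were *Apc*, its large scaffold, which fell (-1.38 in WT and -1.54 in P53-/-, limma adjusted p = 0.000312 and 0.000167), and *Amer1*, which recruits APC to the membrane and also fell (-1.267 and -1.497, limma adjusted p = 0.000448 and 0.000181). *Apc* was listed at 12.7 to 15.6 FPKM in serum and 4.39 to 5.74 in 2i. The genes of the kinase that CHIR99021 inhibits were not called. *Gsk3b* was listed at 6.90 to 8.85 FPKM in serum and 4.99 to 6.22 in 2i, with fold changes of -0.50 and -0.53 that passed the adjusted p (0.0148 and 0.0111 by limma) but not the fold of 1.5. *Gsk3a* was listed at 14.2 to 21 in serum and 14.7 to 19.3 in 2i, with fold changes of 0.05 in WT and -0.02 in P53-/-, the latter turning to 0.03 and 0.09 with median-ratio scaling and quantile normalization.

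Of 10 nuclear cofactor genes tested, 1 was called higher and 2 lower in each genotype. *Bcl9*, a coactivator that binds beta-catenin, fell (-1.47 and -1.75, limma adjusted p = 0.00279 and 0.00108), and *Tle4*, a Groucho corepressor of TCF factors, fell (-1.44 and -1.59, limma adjusted p = 0.00017 and 9.68e-05). An activating and a repressing partner of TCF were therefore both lower in 2i. *Ctnnbip1*, which encodes an inhibitor of the binding of beta-catenin to TCF, rose by 1.01 in WT (limma adjusted p = 0.00118) and had 0.42 in P53-/-, not called. The cofactor gene called higher in P53-/- was *Pygo1* (2.56, limma adjusted p = 0.0177), which had 0.12 in WT, not called. It was listed at 1.78 and 1.74 FPKM in P53-/- 2i and at 0.241 and 0.192 in P53-/- serum.

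Other genes known as Wnt targets did not share a direction: of 8 tested, 3 were called higher and 2 lower in WT 2i, and 3 higher and 3 lower in P53-/- 2i. *Myc*, a growth regulator with many inputs besides Wnt, fell (-5.58 in WT and -5.58 in P53-/-, limma adjusted p = 0.000116 and 0.0001), from 21.2 to 26.9 FPKM in serum to 0.161 to 0.895 in 2i. *T* (Brachyury), a transcription factor of the primitive streak, rose by 3.02 and 2.90 (limma adjusted p = 0.0028 and 0.00315), from 0 to 0.285 FPKM in serum to 0.878 to 3.72 in 2i. *Tnfrsf19*, a receptor of the TNF family, rose by 1.27 and 2.12, and *Bambi*, a pseudoreceptor of the TGF-beta family, by 1.14 and 1.07. *Tbx3*, a pluripotency-associated T-box factor, fell (-0.74 and -1.70, limma adjusted p = 0.00242 and 5.25e-05). *Sp5* and *T* thus rose and *Myc* fell in the same libraries. Of 4 pluripotency genes known to be repressed by TCF7L1, *Klf2* was called higher in WT (0.70, limma adjusted p = 0.00325), though not without WT 2i replicate 2 (0.55). *Nanog* was called lower in P53-/- (-0.60, limma adjusted p = 0.0178), though not without P53-/- 2i replicate 1 (-0.56) or P53-/- serum replicate 2 (-0.37), nor with median-ratio scaling (-0.54) or quantile normalization (-0.52). *Klf2* had 0.38 in P53-/- and *Nanog* 0.02 in WT, neither called. *Esrrb* had -0.50 in WT and -0.51 in P53-/- (limma adjusted p = 0.0168 and 0.0142), short of the 1.5-fold change needed for a call. *Tfcp2l1* had 0.13 and 0.10, not called.

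**Figure D4:**
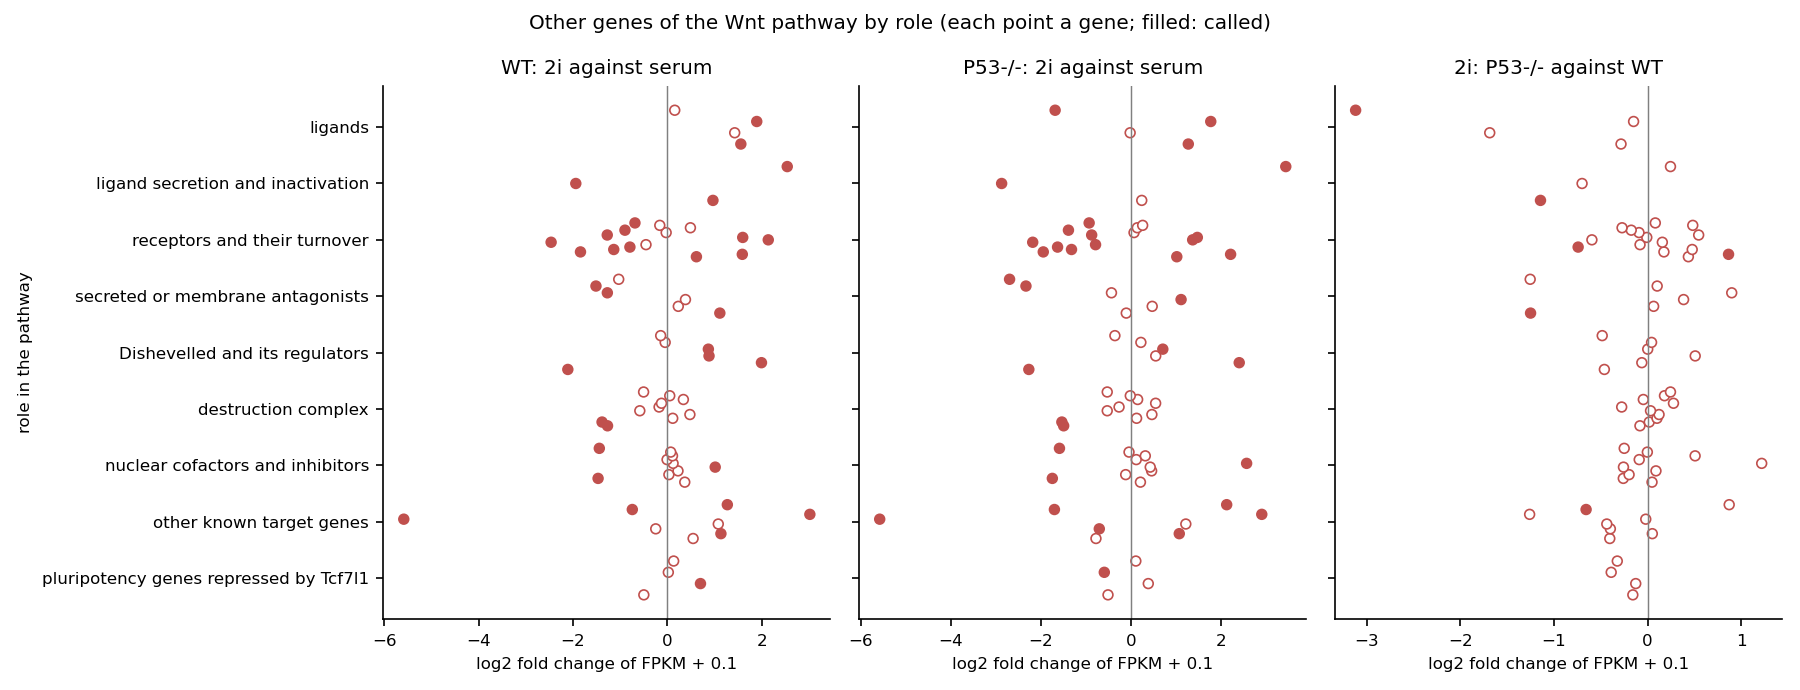
Fold changes on the log2(FPKM + 0.1) scale of the 66 tested genes of the pathway list, by role, in WT 2i against serum, P53-/- 2i against serum, and P53-/- against WT in 2i; each point is a gene and filled points were called. Calls fall on both sides of 0 in most roles, from -5.58 for *Myc* to 3.43 for *Wls*, and the right panel holds 6 calls.

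On loss of P53 in 2i, 6 of the 66 listed genes were called (9.1%, beside the 10.3% of all genes), 5 of them lower. *Wnt6* was listed at 4.38 and 6.80 FPKM in WT ESCs but at 0.460 and 0.635 with P53-/-, and fell by 3.12 on the log2 scale (SE 0.28, limma adjusted p = 0.00127). In serum it was listed at 4.41 and 5.42 in WT and at 1.92 and 2.01 in P53-/-, with a fold change of -1.27 that was not called (limma adjusted p = 0.129). The difference of the *Wnt6* effect between the cultures was -1.84 (SE 0.39, limma adjusted p = 0.167) and was not called either. Its call in 2i was kept with any library left out.

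The other calls in 2i were less firm, and each was lost in at least 1 alternative fit. *Fzd5* fell by 0.74 (limma adjusted p = 0.0206), *Tbx3* by 0.66 (limma adjusted p = 0.034), *Notum* by 1.14 (limma adjusted p = 0.0513) and *Dkk3* by 1.25 (limma adjusted p = 0.0858), and *Fzd2* rose by 0.86 (limma adjusted p = 0.0791). *Notum* stood at 17.9 and 29.7 FPKM in WT ESCs but at 9.28 and 11.6 in P53-/- ESCs of the same culture, beside 7.21 to 12.5 in serum. With either P53-/- 2i library or either WT serum library left out, fewer of the listed genes were called, and fewer of all genes as well. *Fzd5* kept its call with any library left out, and *Tbx3* lost it without either P53-/- 2i library (limma adjusted p = 0.106 and 0.154) or without WT 2i replicate 1 (-0.50). In serum 0 of 66 listed genes were called by limma on loss of P53, beside 1.02% of all genes. The difference between the cultures was called for 0 of 66, beside 0.207% of all genes. At shares this low, 0 of 66 does not set the list apart.

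The profile most like that of *Axin2* over the 8 libraries, centred on each gene's mean of log2(FPKM + 0.1), was that of *Mettl21a* (root mean square difference 0.17 log2 units), followed by *Kctd17* (0.19) and *Rwdd3* (0.19), where the median of all genes compared was 0.66. *Mettl21a* was listed at 6.16 and 7.84 FPKM in WT 2i and between 3.803 and 4.98 in the 6 other libraries. For *Tcf7l1* the nearest were *Zdhhc8* (0.12), *Lama1* (0.14) and *Rfx2* (0.14), with a median of 0.59. None of these 6 genes is on the pathway list.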

How the data were processed

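Total RNA of G1-sorted ESCs was depleted of ribosomal RNA, primed with random hexamers and made into stranded libraries. The authors deposited FPKM values as a table of symbols by libraries. The submitters' processing notes name STAR, Cufflinks, DESeq2 and mm9 without roles or versions. Columns name genotype and culture only. The libraries of P21-/- ESCs and of their WT 2i controls were not analysed here.

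From these values log2(FPKM + 0.1) was fitted with limma 3.58.1 (R 4.3.3) for genes averaging 0.5 FPKM or more, as 1 fit of 4 groups with an eBayes trend and Benjamini-Hochberg adjustment over all genes tested. A call needed both an adjusted p under 0.1 and more than a 1.5-fold change. Exact permutation of 2 against 2 libraries cannot give p below 0.33 and was not used. FPKM values hold no counts, so count models and counting intervals were not used. Small RNA genes held 92.6% to 99.4% of each library's FPKM sum, and a fit without them was an alternative. Further fits used a pseudocount of 1 or 0.01, no filter beyond a value above 0, a minimum mean of 1 FPKM, quantile or median-ratio normalization, no eBayes trend, only the compared groups, or 7 of the 8 libraries, and calls were also made at an adjusted p under 0.05. Scripts were tested on simulated data.

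Of the symbols 98.2% matched GENCODE M21 (GRCm38), from which positions were taken by name. Promoters were from RefSeq (GRCm38.p6), and no window was printed for *Cdx1*. Named list genes are, per culture comparison and role, up to 4 called genes that averaged 1 FPKM or more, with the largest fold changes, every such call on loss of P53, and *Gsk3a* and *Gsk3b*. *Esrrb*, *Tfcp2l1* and *Pygo1* are named besides and are not in the counts of named calls kept in the alternatives. The 3 nearest profiles were taken among tested genes averaging 1 FPKM or more. The 10 genes and the lists were chosen with earlier results of these data known. *Mixl1*, *Mesp1*, *Eomes*, *Gsc*, *Gata4*, *Nes*, *Sox1*, *Pax6*, *Zic1*, *Utf1*, *Thy1* and the fibroblast genes at 0 are members of marker lists. Figures were drawn with Python 3.11.15 and matplotlib 3.10.9.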

Additional observations from a re-analysis of the deposited data

How the results depend on the processing

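The number of the 10 genes called was 4 to 5 in WT 2i against serum and 3 to 5 in P53-/- 2i against serum over all alternatives, and 0 in every alternative for the comparisons of P53-/- with WT and for their difference, except that leaving out a library gave a range of 0 to 1 in 2i, where *Sp5* was called without WT 2i replicate 2. A fit with a library left out assumes that the lone library of its group varies like the others. The count over all genes moved more on loss of P53. On loss of P53 in 2i it was 1299, and 771 at an adjusted p under 0.05, 193 in a fit of the compared groups only and 491 to 1224 with a library left out. In serum it was 128, against 73, 37 and 52 to 148, and it was 188 without small RNA genes, where 1 of the 66 listed genes was called. For the difference it was 26, against 16 at an adjusted p under 0.05, 66 with a pseudocount of 1, 40 without small RNA genes, 40 without trend and 19 to 69 with a library left out, where 1 of the 66 listed genes was called without WT 2i replicate 1.

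The fold changes that turned sign were not called with all 8 libraries and the settings of the report, but that of *Sp5* on loss of P53 in 2i was called without WT 2i replicate 2 (1.335) and that of *Egr1* in WT without WT 2i replicate 1 (-1.411). With a pseudocount of 1 the difference of the P53 effect on *Sp5* was 0.15, and *Gsk3a* in P53-/- had 0.032 with median-ratio scaling and 0.091 with quantile normalization. With a library left out, fold changes of 2i against serum ran from -0.021 to 0.090 for *Ctnnb1* in WT, from -0.41 to 0.215 for *Lef1* in P53-/-, from -0.014 to 0.115 for *Gsk3a* in WT and -0.267 to 0.227 in P53-/-, and from -1.411 to 0.369 for *Egr1* in WT. Those of P53-/- against WT in 2i ran from -0.529 to 1.335 for *Sp5*, -0.085 to 0.736 for *Lef1*, -0.506 to 0.041 for *Tcf7* and -0.639 to 0.138 for *Tcf7l2*. In serum they ran from -0.119 to 0.382 for *Axin2* and -0.114 to 0.403 for *Tcf7*. The difference ran from -1.157 to 0.706 for *Sp5*, -0.256 to 0.327 for *Tcf7l1*, -0.773 to 0.005 for *Tcf7l2* and -0.056 to 0.385 for *Cdx1*. The cause was not tested. Of the named list genes, 20 of 25 calls in WT, 21 of 22 in P53-/- and 1 of 6 on loss of P53 in 2i were kept in every alternative. No paired analysis was possible because the columns carry no replicate numbers. The values of *Dkk1*, *Nkd1*, *Tcf7l2* and *Lef1* rest on few fragments.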
